A study of Mus musculus with 8 samples.

Results

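The 7 genes described here encode RNA-binding and chromatin proteins of fetal growth: Lin28a, Lin28b, Igf2bp1, Igf2bp2, Igf2bp3, Hmga1 and Hmga2. They were taken by gene symbol from the 49315 Ensembl gene IDs of the count table, and all 7 were found. The values come from RNA sequencing of polyadenylated transcripts in mouse kidney, with 4 libraries labelled control and 4 labelled conditional knockout, the gene removed being Kdm1a. Kdm1a encodes LSD1, a demethylase of histone H3 that works in repressor complexes. The labels describe the controls as wild type and give no age, sex, strain or recombinase, so the kidney cells that lost Kdm1a are not known from the sources used here. Nothing in the labels says that the libraries came from separate animals. The p-values below set the difference between the groups against the spread between these samples.

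LIN28A and LIN28B are RNA-binding proteins that block the maturation of let-7 microRNAs. Mature let-7 in turn lowers the messenger RNAs of HMGA2, of the IGF2BP proteins and of LIN28 itself, so that the genes form a loop that is open in embryonic tissue and closes as tissues mature. IGF2BP1, IGF2BP2 and IGF2BP3 bind and stabilise messenger RNAs, those of Igf2 among them. HMGA1 and HMGA2 are small proteins that bind AT-rich DNA and bend it. In the developing kidney, Lin28b is known for the timing of nephron formation.

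All 7 genes hold a match to the let-7 seed in the 3′ UTR. Of the 11 distinct mature sequences of the let-7 family in RefSeq (GRCm38.p6), 10 carry the same seed, bases 2 to 8 from the 5′ end, shown in capitals for 4 of them that differ elsewhere. The sequence of let-7j, with another base at the end of the seed, is shown for contrast.
let-7a: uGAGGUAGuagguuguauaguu
let-7d: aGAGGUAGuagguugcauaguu
let-7g: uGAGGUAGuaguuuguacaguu
miR-98: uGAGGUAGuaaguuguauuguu
let-7j: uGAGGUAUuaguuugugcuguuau

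The bases opposite this seed, CTACCTC, were searched on the transcript strand only, in the longest annotated 3′ UTR of each gene (GENCODE M21, GRCm38). All 7 genes held at least 1 match and together they held 17, where 9.02% of 21024 genes with a 3′ UTR held any. Lin28b, Igf2bp1 and Hmga2 held 4 each, a number reached by 0.236%, 0.355% and 0.134% of the genes whose 3′ UTR lay within 20% of the same length. Lin28a held 2, a number reached by 2.10% of genes with a 3′ UTR of like length. Igf2bp2, Igf2bp3 and Hmga1 held 1 each. For these 3 genes, 12.0%, 13.3% and 8.08% of genes with a 3′ UTR of like length held a match. The first match after the stop codon is shown for each gene, as the 22 bases that a let-7 microRNA would lie along, with the match in capitals. These genes are known for regulation by let-7, so the matches are a description and not a finding of these libraries.
Lin28a, chr4:134005189-134005210, minus strand: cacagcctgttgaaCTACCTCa
Lin28b, chr10:45381022-45381043, minus strand: cccgggcgggaagtCTACCTCa
Igf2bp1, chr11:95961778-95961799, minus strand: ctgtgcgaagtaaaCTACCTCa
Igf2bp2, chr16:22059473-22059494, minus strand: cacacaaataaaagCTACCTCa
Igf2bp3, chr6:49086787-49086808, minus strand: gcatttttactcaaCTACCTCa
Hmga1, chr17:27563278-27563299, plus strand: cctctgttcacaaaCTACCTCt
Hmga2, chr10:120364224-120364245, minus strand: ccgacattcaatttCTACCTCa

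In 9 of the 17 sites the match was followed by an A, the base that favours binding of the silencing complex, and 6 of the 7 genes had such a site. The exception was Hmga1. Hmga2 and Lin28b each had their first match within the opening stretch of the 3′ UTR, at bases 58 and 36, and the other 3 in both genes lay at base 1295 or beyond.

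**Figure D1:**
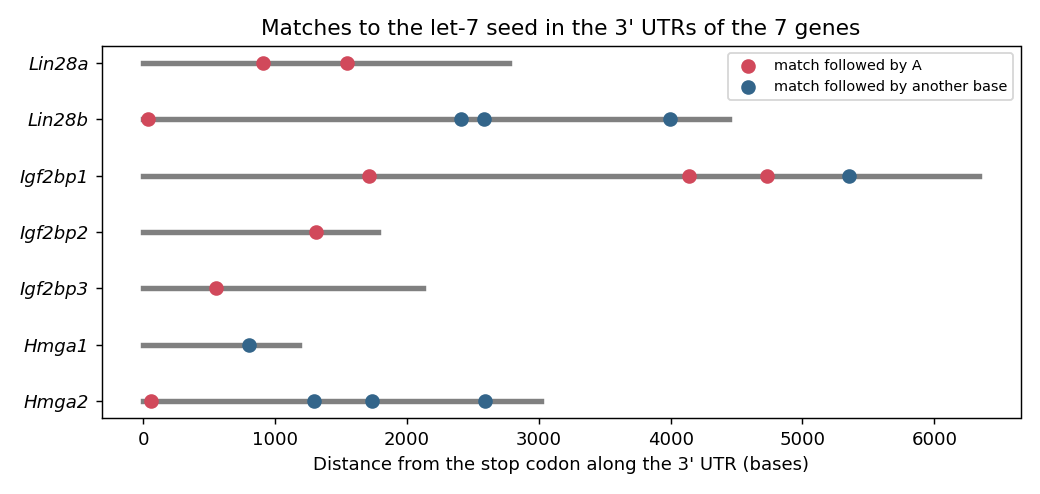
Matches to the let-7 seed along the 3′ UTR of each gene, with distance from the stop codon in bases on the horizontal axis and 1 gene per row. Grey bars are the 3′ UTRs, red points are matches followed by an A and blue points are matches followed by another base. Lin28b, Igf2bp1 and Hmga2 hold 4 matches each, Lin28a holds 2 and the others hold 1.

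The libraries held from 19524945 to 28544511 counts, so that 1 count stood for 0.0350 to 0.0512 CPM, the unit used below, in which each count is scaled by the size of its library. Kdm1a itself was at 110, 112, 120 and 110 CPM in control replicates 1 to 4 and at 94.0, 95.3, 90.9 and 94.2 CPM in knockout replicates 1 to 4. Every knockout lay below every control, yet Kdm1a transcripts stayed abundant (log2 fold change −0.27, SE 0.05, edgeR adjusted p 0.0194). When each library was left out in turn, the adjusted p of Kdm1a was above 0.05 in 5 of 8 fits and reached 0.0765 without knockout replicate 4. Markers set the tissue in context. The 8 proximal tubule markers were called lower in the knockout in every case, and their summed level was 451 to 1738 CPM in controls and 72.6 to 336 CPM in knockouts. All 10 nephron progenitor markers were detected, with summed levels of 749 to 1062 CPM in controls and 879.7 to 1189.6 CPM in knockouts. Of these, Gdnf was called higher and Cited1 and Meox1 lower by edgeR. Of 6 renal stroma markers 3 were called higher (Foxd1, Meis1 and Pdgfra), as were Ret among 5 ureteric bud tip markers and Ptprc among 5 tested leukocyte markers. Of 5 tested erythroid and blood progenitor markers 0 were called, with summed levels of 161 to 186 CPM in controls and 148 to 178 CPM in knockouts. The part of these differences in the results for the 7 genes was not tested. The 11 adrenal markers, a list kept because the gland lies on the kidney, summed to 2703 CPM in knockout replicate 1, 335 CPM in knockout replicate 4, 147 CPM in control replicate 4 and 15.0 to 21.6 CPM in the other 5 libraries, and 0 of 9 tested were called. For whole tissue, fewer cells of a type and less RNA per cell cannot be told apart.

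None of the 7 genes was called at an edgeR adjusted p under 0.05. Of 18485 genes tested, 14.9% were called, 6.61% as higher and 8.27% as lower in the knockout, so with 6 members tested a count of 0 is near what the background gives. Lin28a did not pass the filter on low counts and has no test. Of the 6 tested members, 5 had higher values in the knockout, as did 50.5% of all tested genes, and Hmga1 had a lower value. Their median log2 fold change was 0.16 against 0.0044 over all genes tested. At an unadjusted p under 0.05 there was 1 member, Igf2bp2, where 35.1% of all tested genes passed. The control and knockout libraries overlapped in all 7 genes. Of all tested genes, 18.9% had groups that did not overlap, so 0 among the 6 tested members is also near the background. From 1 to 3 members were called in 4 of 18 alternative fits, and these fits called 17.5% to 44.9% of all genes tested.

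**Figure D2:**
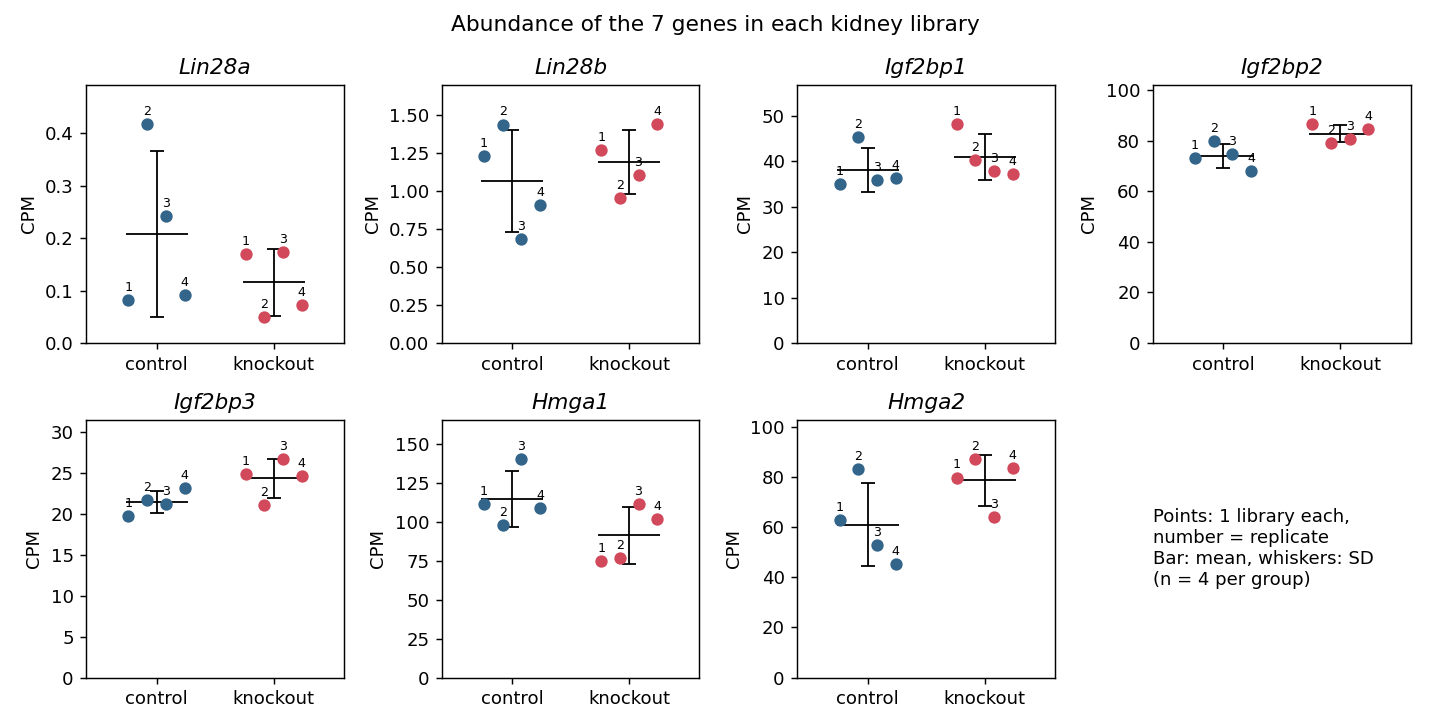
Abundance in CPM of the 7 genes in each library, 1 panel per gene, with controls in blue and knockouts in red. Points are libraries numbered by replicate, the bar is the mean and the whiskers are the SD (n = 4 per group). The groups overlap in every panel, and control replicate 2 is the highest control for Lin28a, Lin28b, Igf2bp1, Igf2bp2 and Hmga2 and the lowest for Hmga1.

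The levels of the 7 genes spanned several orders of magnitude. Scaled to CPM per kb of exon and averaged over the 8 libraries, Hmga1 stood at 51.7, Igf2bp2 at 11, Hmga2 at 10.3, Igf2bp1 at 4.09, Igf2bp3 at 2.81, Lin28b at 0.124 and Lin28a at 0.0406. On this scale Hmga1 lay above 94.7% of tested genes and Lin28b above 1.51%. Igf2bp2 and Hmga2 did not separate, since Igf2bp2 was the higher in only 5 of the 8 libraries and their ranges, 9.57 to 12.1 and 6.66 to 12.9 CPM per kb, overlapped. Lin28b exceeded Lin28a in 8 of 8 libraries, although the ranges overlapped across libraries. The other neighbours in this order did not overlap. The place of Igf2bp1 above Igf2bp3 depended on the length used. Per kb of the longest annotated transcript the means were 4.72 for Igf2bp1 and 5.28 for Igf2bp3, with ranges of 4.19 to 5.75 and 4.56 to 6.16 that overlap.

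**Figure D3:**
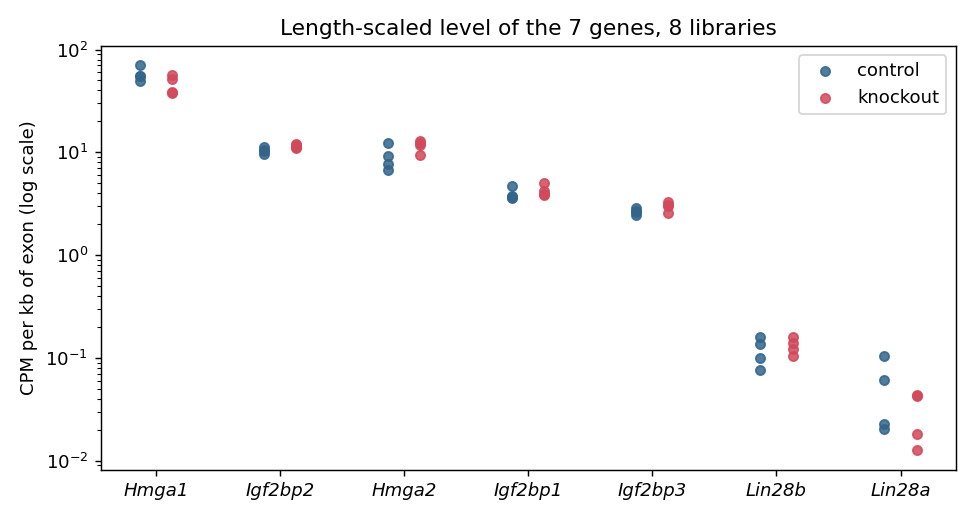
Level of each gene per kb of exon in the 8 libraries, in CPM per kb on a log scale, with controls in blue and knockouts in red. Hmga1 is the highest in every library, and Lin28b and Lin28a lie below 0.16 CPM per kb in every library.

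The LIN28 genes come first in the loop and were nearly silent. Lin28a (ENSMUSG00000050966, chromosome 4, 134003330 to 134018841, minus strand) had 2, 9, 6 and 2 counts in control replicates 1 to 4 and 4, 1, 5 and 2 counts in knockout replicates 1 to 4. That is 0.0502 to 0.417 CPM, close to the level of a single count. Pooled over libraries there were 19 counts in controls and 12 in knockouts, a ratio of knockout to control of 0.584 with an exact 95% interval of 0.259 to 1.27 that covers counting error only. The highest library was control replicate 2, and without it the ratio was 0.852 (0.337 to 2.20). Germ cells and pluripotent cells also express Lin28a, and control replicate 2 stood apart in their markers. The 10 markers summed to 44.0 CPM there, led by Sycp3 at 10.9 and Mael at 8.81 CPM. In the other controls they summed to 1.56 to 1.94 CPM and in knockouts to 2.41 to 3.56 CPM, with Stra8 at 0 in all libraries. The part of these cells in the Lin28a counts was not tested. Lin28a lies 2.53 megabases from Kdm1a on the same chromosome.

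Lin28b (ENSMUSG00000063804, chromosome 10, 45376620 to 45486395, minus strand) was the more abundant of the pair. It was at 1.23, 1.44, 0.686 and 0.909 CPM in the controls and at 1.27, 0.954, 1.11 and 1.44 CPM in the knockouts, from 17 to 40 counts per library. The groups overlapped nearly in full. The log2 fold change was 0.17 (SE 0.28, 95% interval −0.46 to 0.80, edgeR adjusted p 0.692), which corresponds to levels from 0.725 to 1.74 times those of the controls. The interval from counting error alone, for the ratio of pooled counts, was 0.868 to 1.51, so both the spread between libraries and the depth limit what can be seen. No alternative fit called Lin28b.

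Of the IGF2BP genes, Igf2bp2 had the smallest standard error. Igf2bp2 (ENSMUSG00000033581, chromosome 16, 22059009 to 22163299, minus strand) is the family member that many adult tissues retain. It was at 73.1, 80.0, 74.9 and 68.3 CPM in the controls and at 86.6, 79.2, 80.8 and 84.6 CPM in the knockouts. Control replicate 2 lay above the lowest knockout and below the other 3. The means were 74.1 ± 4.86 and 82.8 ± 3.39 CPM (SD, n = 4 each), a log2 fold change of 0.16 (SE 0.07, 95% interval 0.01 to 0.31). With an unadjusted p of 0.0371 the edgeR adjusted p was 0.119, so the difference was not called. The interval corresponds to levels 1.01 to 1.24 times those of the controls. Igf2bp2 was called without control replicate 2 (log2 fold change 0.20, edgeR adjusted p 0.0335), a fit in which 37.4% of all tested genes were called. It was also called with knockout replicate 3 left out as well (0.21, adjusted p 0.0353) and by limma-voom with sample weights (adjusted p 0.0193). Those fits called 42.7% and 44.9% of all tested genes. Control replicate 2 was the highest control for Igf2bp2, so a wider difference was built into the fits without it.

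Igf2bp1 and Igf2bp3 are the members whose expression is mostly restricted to embryonic tissue. Igf2bp1 (ENSMUSG00000013415, chromosome 11, 95957163 to 96005940, minus strand) was at 35.1, 45.4, 35.8 and 36.3 CPM in the controls and at 48.2, 40.4, 38.0 and 37.3 CPM in the knockouts. Control replicate 2 and knockout replicate 1 were high, and the other 6 libraries lay between 35.1 and 40.4 CPM. The log2 fold change was 0.10 (SE 0.11, 95% interval −0.15 to 0.35, edgeR adjusted p 0.543). Knockout replicate 1 was also the library with the most adrenal marker RNA. Without it the log2 fold change of Igf2bp1 was 0.013 (edgeR adjusted p 0.947). The adrenal markers summed to 18.6 CPM in control replicate 2. They summed to 335 CPM in knockout replicate 4, the lowest knockout for Igf2bp1. With a covariate for adrenal genes the log2 fold change of Igf2bp1 was 0.048 (edgeR adjusted p 0.822). Whether adrenal tissue is a cause of the Igf2bp1 values was not tested. Igf2bp3 (ENSMUSG00000029814, chromosome 6, 49085223 to 49214957, minus strand) was at 19.8, 21.7, 21.3 and 23.2 CPM in the controls. The knockouts had 24.96, 21.1, 26.7 and 24.7 CPM of it, and 3 of the 4 lay above all controls. Its log2 fold change was 0.18 (SE 0.09, 95% interval −0.03 to 0.40, edgeR adjusted p 0.196). Neither gene was called in any alternative fit. Malsu1 overlaps Igf2bp3 on the opposite strand, and the labels do not say whether strand was used in counting. Its own log2 fold change was −0.06 (SE 0.08, adjusted p 0.655).

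The HMGA genes had larger standard errors than the IGF2BP genes, and their fold changes had opposite signs. Hmga2 (ENSMUSG00000056758, chromosome 10, 120361275 to 120476469, minus strand) was at 62.9, 83.2, 52.7 and 45.1 CPM in the controls. The knockouts were at 79.7, 87.1, 64.1 and 83.6 CPM. Control replicate 2 lay among the knockouts, and knockout replicate 3 lay close to control replicate 1. The means were 61.0 ± 16.5 and 78.6 ± 10.1 CPM (SD, n = 4 each), a log2 fold change of 0.37 (SE 0.18, 95% interval −0.04 to 0.77), and the difference was not called (edgeR adjusted p 0.179).

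The size and the call of the Hmga2 difference depended on single control libraries. Without control replicate 2 the log2 fold change was 0.55 (SE 0.14, adjusted p 0.0140). With knockout replicate 3 left out as well it was 0.64 (SE 0.11, adjusted p 0.00338), in a fit that called 42.7% of all genes. The libraries left out were the highest control and the lowest knockout for Hmga2, so a wider difference was built into these fits. Limma-voom with sample weights also called Hmga2 (0.54, adjusted p 0.00598). Without control replicate 4, the lowest control, it was 0.24 (adjusted p 0.367). The 8 proximal tubule markers summed to 451 CPM in control replicate 2, the lowest of the controls, and to 336 CPM in knockout replicate 3, the highest of the knockouts. They were thus the control and the knockout nearest to the other genotype in this sum, and the part of tissue composition in the Hmga2 difference was not tested. Of the transcripts that overlap Hmga2, the antisense RNA 9230105E05Rik had a log2 fold change of −0.65 (SE 0.22, edgeR adjusted p 0.0715) and 1700006J14Rik had −0.40 (SE 0.21, adjusted p 0.204).

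**Figure D4:**
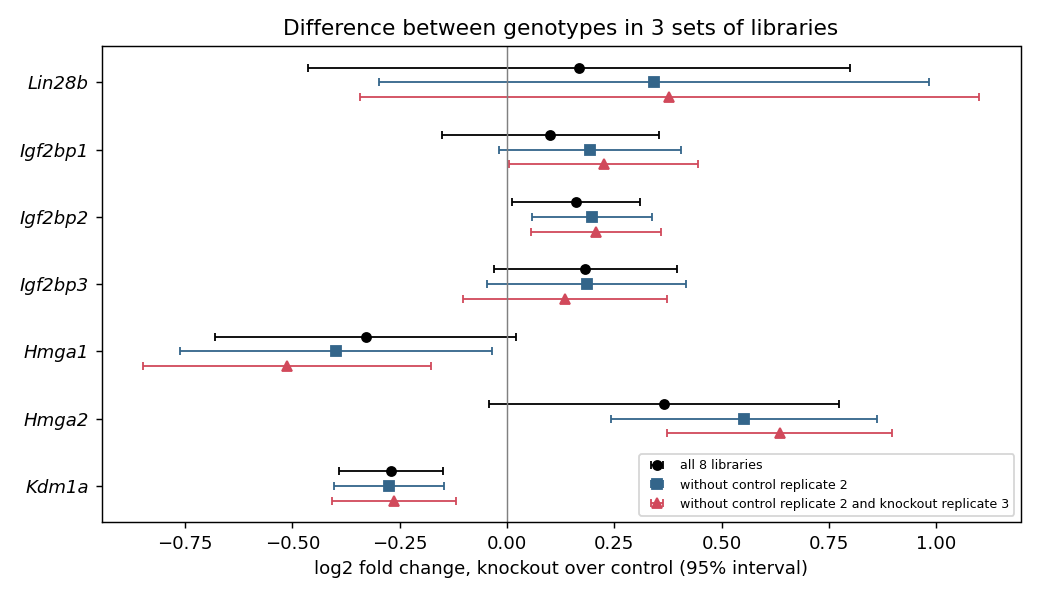
Log2 fold change, knockout over control, with 95% intervals for the 6 tested genes and Kdm1a, from edgeR fits to all 8 libraries (black circles), without control replicate 2 (blue squares) and without control replicate 2 and knockout replicate 3 (red triangles). Hmga2 moves from 0.37 to 0.55 and 0.64, and Hmga1 from −0.33 to −0.40 and −0.51. For both genes the libraries left out are the control and the knockout nearest to the other genotype, so wider differences are built in.

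Hmga1 (ENSMUSG00000046711, chromosome 17, 27556620 to 27563674, plus strand) was the most abundant of the 7. It was at 111, 98.2, 140 and 109 CPM in the controls and at 74.5, 76.8, 111 and 102 CPM in the knockouts. Knockout replicates 1 and 2 were low, whereas knockout replicates 3 and 4 lay within the control range. The means were 115 ± 18.0 and 91.2 ± 18.4 CPM (SD, n = 4 each), a log2 fold change of −0.33 (SE 0.16, 95% interval −0.68 to 0.02, edgeR adjusted p 0.163). It was called by limma-voom with sample weights (log2 fold change −0.44, adjusted p 0.0280), which called 44.9% of all genes. It was also called with control replicate 2 and knockout replicate 3 both left out (−0.51, edgeR adjusted p 0.0231). Those libraries were the lowest control and the highest knockout for Hmga1, so a wider difference was built into that fit.

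The counts of Hmga1 cannot be separated fully from those of Hmga1b, a near-identical copy on chromosome 11 (120762794 to 120764419). The Hmga1b transcript aligned to Hmga1 over 1602 of its 1626 bases, and 1599 of these were identical (99.8%). Reads counted for Hmga1b split the libraries across genotypes. There were 477 and 303 counts in control replicates 1 and 4 and 287 and 254 in knockout replicates 1 and 2, but only 19 to 33 in the other 4 libraries. As a share of the counts of both genes, Hmga1b took 15.0% and 11.2% in control replicates 1 and 4 and 13.99% and 14.2% in knockout replicates 1 and 2. It took 1.26% and 0.544% in control replicates 2 and 3 and 1.01% and 1.12% in knockout replicates 3 and 4. The exact 95% intervals, which cover counting error only, ran from 10.1% to 16.2% in the first 4 libraries and from 0.328% to 1.83% in the others, with no library in between.

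The split in Hmga1b lay across the groups, with 2 libraries of each genotype on either side. The edgeR fit gave Hmga1b a log2 fold change of −0.39 with an SE of 1.09 and an adjusted p of 0.817. When the counts of both genes were summed, an alternative chosen after seeing the data, the controls were at 123 ± 17.7 CPM and the knockouts at 98.0 ± 12.1 CPM. The log2 fold change stayed at −0.33 with a smaller error (SE 0.12, 95% interval −0.61 to −0.06), and the edgeR adjusted p was 0.0902. Control replicate 2, at 99.4 CPM, was the only control within the knockout range of 86.7 to 113 CPM. AI413582, which overlaps Hmga1 on the opposite strand, had a log2 fold change of −0.01 (SE 0.12, edgeR adjusted p 0.937).

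**Figure D5:**
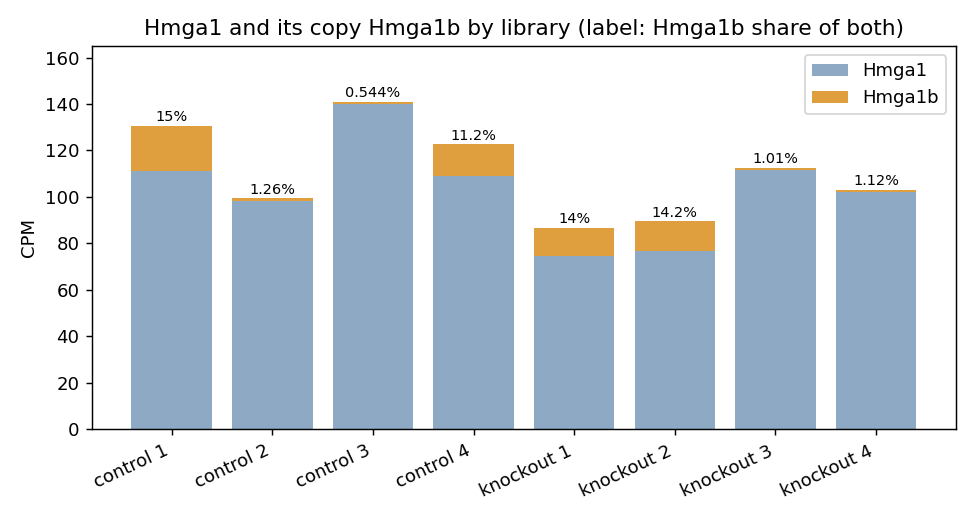
Abundance in CPM of Hmga1 (blue) with Hmga1b stacked on it (orange) in each library, labelled with the Hmga1b share of the counts of both. Control replicates 1 and 4 and knockout replicates 1 and 2 have shares of 11.2% to 15.0%, and the other 4 libraries have shares of 0.544% to 1.26%.

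For each tested member, the 3 genes with the most similar profile over the 8 libraries were sought among 14183 genes, with Pearson's r of log2 CPM as the measure of likeness. Hmga2 was followed most closely by Alg6 (r = 0.991), Hdgfl3 (0.990) and Taf1d (0.990), and 794 genes had an r over 0.9 with it. Igf2bp2 was followed by Lrch3 (0.982), Tet3 (0.977) and Abl2 (0.977), with 448 genes over 0.9. The other members had few such genes. Igf2bp1 had 30, led by Perm1, Fbxo33 and Tmed5 (0.969, 0.969 and 0.968), and Hmga1 had 29, led by Mrpl44, Pcbp3 and Il34 (0.963, 0.959 and 0.953). Igf2bp3 had 14, led by Eno2, Arl4a and Nat8l (0.954, 0.944 and 0.942), and Lin28b had 10, led by Cacna1e, Ankrd24 and Lrp8os2 (0.967, 0.932 and 0.922). These values rest on 8 libraries of 2 genotypes and describe the profiles only. Between members, the highest r was 0.83, for Igf2bp2 and Hmga2, while Igf2bp1 and Hmga2 had −0.74 and −0.70 with Hmga1.

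The machinery that makes and uses let-7 was present in every library. Of 18 genes of let-7 biogenesis and LIN28 partners, all tested, 3 rose and 0 fell (16.7% called, against 14.9% of all genes), with a median log2 fold change of 0.08. Ago1 and Ago3, whose Argonaute proteins carry microRNAs, were among them, with Msi1, an RNA-binding protein gene linked to LIN28, as the other. Ago3 was at 15.1, 16.7, 15.9 and 16.2 CPM in the controls and at 24.2, 21.7, 18.9 and 20.8 CPM in the knockouts (log2 fold change 0.42, SE 0.10, edgeR adjusted p 0.0275). Ago1 rose from 80.6 ± 4.45 to 95.2 ± 3.16 CPM (0.24, adjusted p 0.0332) and Msi1 from 23.95 ± 5.04 to 33.5 ± 1.997 CPM (0.48, adjusted p 0.0468). Trim71, which encodes a ubiquitin ligase and let-7 target that works beside LIN28, was at 4.42, 8.49, 4.20 and 3.68 CPM in the controls and at 8.15, 7.23, 8.48 and 10.8 CPM in the knockouts, with control replicate 2 within the knockout range (0.74, SE 0.27, adjusted p 0.0909). Hnrnpa1, the most abundant of the list and not called, had a log2 fold change of −0.01 (adjusted p 0.931). All 3 calls were lost with the adrenal covariate, and when each library was left out in turn they were lost in 6 of 8 fits. Other fits called more of the list. DESeq2 called 4, edgeR without control replicate 2 called 7 and limma-voom called 8. The last 2 of these fits called 37.4% and 44.9% of all genes.

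Transcripts that contain a let-7 locus on the same strand could be measured for Mir99ahg, 6720427I07Rik, Huwe1 and Wdr82, and edgeR called none of them with all 8 libraries. In the list of hosts, Mir99ahg and Huwe1, DESeq2 called 1 gene as higher. Limma-voom called 2, as did edgeR without control replicate 2, fits that called 44.9% and 37.4% of all genes. Huwe1 had an unadjusted edgeR p under 0.05, as did 35.1% of all tested genes. Mir99ahg, the host of let-7c, was at 8.23, 26.8, 6.70 and 5.14 CPM in the controls and at 24.7, 32.3, 18.5 and 18.2 CPM in the knockouts. Control replicate 2 again lay among the knockouts, and the log2 fold change was 0.997 with an SE of 0.49 (edgeR adjusted p 0.176). Huwe1, the host of let-7f and miR-98, had a log2 fold change of 0.17 (SE 0.05, edgeR adjusted p 0.0658). Mature microRNAs are not captured by these libraries, so no let-7 level is known here.

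Of 25 other genes that textbooks list as let-7 targets, 2 rose and 2 fell (16.0% called), with a median log2 fold change of 0.15. The cyclin genes Ccnd2 and Ccnd1, which drive the G1 phase of the cell cycle, went in opposite directions. Ccnd2 rose from 183 ± 24.8 to 273 ± 28.6 CPM (log2 fold change 0.57, edgeR adjusted p 0.0188). Ccnd1 fell from 261 ± 43.2 to 192 ± 21.0 CPM (−0.44, adjusted p 0.0473). Cdc34, a ubiquitin-conjugating enzyme gene, fell from 43.9 ± 6.68 to 29.7 ± 0.908 CPM (−0.56, adjusted p 0.0187), and Insr, the insulin receptor gene, rose from 62.4 ± 11.2 to 87.8 ± 12.6 CPM (0.49, adjusted p 0.0477). Igf1r, the most abundant gene not called, had a log2 fold change of 0.54 (SE 0.21, edgeR adjusted p 0.103). Calls in this list numbered from 0 to 11 when a library was left out. The highest number came without control replicate 2, a fit that called 37.4% of all genes.

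In the insulin-like growth factor axis, 19 genes were tested, of which 2 rose and 1 fell (15.8% called, median log2 fold change 0.22). Igf2, whose messenger RNA the IGF2BP proteins were named for, was at 584, 929, 493 and 549 CPM in the controls and at 766, 992, 868 and 882 CPM in the knockouts. Control replicate 2 was within the knockout range, the log2 fold change was 0.46 (SE 0.19) and the gene was not called (edgeR adjusted p 0.117). H19, the non-coding RNA next to Igf2, had 2289 ± 358 and 2200 ± 161 CPM (−0.06, adjusted p 0.730). Igfbp6, a secreted binding protein gene, rose from 47.1 ± 25.5 to 124 ± 25.4 CPM (1.39, SE 0.34, adjusted p 0.0314). Igfals, which encodes the acid-labile subunit of the circulating complex, fell from 2.48 ± 1.24 to 0.260 ± 0.101 CPM (−3.26, SE 0.48, adjusted p 0.0109). Insr was the other gene that rose. From 1 to 9 genes of the axis were called when a library was left out. The most were called without control replicate 2, a fit that called 37.4% of all genes. Of 8 RNAs known to be bound by IGF2BP proteins, edgeR called 1 with all 8 libraries, Gli1, which was higher at 66.9 ± 12.5 against 46.8 ± 2.73 CPM (0.52, adjusted p 0.0336). That is 12.5% of the list, against 14.9% of all genes. DESeq2 called 2 genes of this list, limma-voom 5, and edgeR 3 without control replicate 2. Over all genes, DESeq2 called 4506, limma-voom called 44.9% and edgeR without control replicate 2 called 37.4%. With the adrenal covariate edgeR called 0 of the list. It also called 0 in 5 of the 8 fits without a single library (control replicates 1, 3 and 4 and knockout replicates 1 and 4).

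Other high mobility group genes were compared with the HMGA pair. Of 7 tested, Hmgn3 rose and Hmgn2 fell (28.6% called, median log2 fold change −0.07). Both encode proteins that bind nucleosomes. Hmgn3 was at 64.6, 77.1, 61.5 and 63.2 CPM in the controls and at 97.1, 109, 97.1 and 104 CPM in the knockouts (log2 fold change 0.61, SE 0.08, edgeR adjusted p 0.00879). Hmgn2 was at 266, 507, 451 and 440 CPM in the controls and at 191, 207, 198 and 205 CPM in the knockouts (−1.05, SE 0.17, adjusted p 0.0128). In both genes no knockout overlapped any control. Hmgn2 has many processed pseudogenes, and how reads that fit several places were counted is not given in the sources used here. Hmgb1, the most abundant of the list, had a log2 fold change of −0.07 (SE 0.06, edgeR adjusted p 0.447). Of 12 cell cycle genes, 0 were called by edgeR with all 8 libraries, 2 by DESeq2 and 4 by limma-voom (median log2 fold change −0.05). edgeR called 1 with the Y-linked covariate and 3 without control replicate 2. Of all genes, limma-voom called 44.9% and edgeR without control replicate 2 called 37.4%. DESeq2 called 4506 genes in all and edgeR with the Y-linked covariate 2079, against 2751 in the main fit. With all 8 libraries 3 of the 12, Pcna, Mcm2 and Mcm5, had an unadjusted edgeR p under 0.05, a smaller share than the 35.1% of all tested genes. Mki67, a marker of dividing cells, was at 274 ± 29.9 and 305 ± 17.6 CPM (0.15, adjusted p 0.227).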

How the data were processed

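Messenger RNA from frozen kidney, enriched with oligo-dT beads, was sequenced in 4 control and 4 conditional knockout libraries, per the labels' protocols. The authors deposited raw read counts per Ensembl gene, and the series table and the 8 library tables held identical counts. The submitters' processing notes name Trimmomatic 0.36, STAR 2.5.2b, featureCounts, Subread 1.5.2, DESeq2 and GRCm38. The strand setting and the handling of reads with several matches are not given in the sources used here. Groups were taken from the genotype labels. Library totals were 19524945 to 28544511 counts.

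From these counts, CPM with TMM-scaled library sizes and log2 fold changes (knockout over control) were computed with edgeR 4.0.16 (R 4.3.3). After the default filter on low counts, 18485 genes were tested by the quasi-likelihood test with Benjamini-Hochberg adjustment over all of them, and a gene was called at an adjusted p under 0.05. Intervals are 95% and two-sided. Only the edgeR fit with no covariate was tested on simulated counts, made for the genes that pass the filter. Alternatives were other size factors, DESeq2 1.42.0, limma-voom (limma 3.58.1), other filters, covariates for Y-linked and adrenal genes, a replicate block, and leaving out libraries. Symbols came with the reference annotation for 49056 of the 49315 IDs. Matches to let-7 were searched in GENCODE M21 transcripts, with mature sequences from RefSeq (GRCm38.p6).

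The members and the 15 gene lists were chosen with earlier results of these data known. Genes named are the members, Kdm1a, Igf2, H19, up to 4 called genes with the smallest p and the most abundant uncalled gene of each list, overlapping genes and copies, and the 3 genes most like each member. The last group leaves out pseudogenes, numbered predicted genes, Y-linked genes and Xist. Trim71, Pcna, Mcm2, Mcm5, Sycp3, Mael, Stra8, the let-7 hosts found by position, Zfp512b and D1Ertd622e were named after their values were seen.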

Additional observations from a re-analysis of the deposited data

Results flagged for a closer look

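Among the genes named here and the summed marker lists, 69 items in all, each group of 4 libraries was examined for a library so far from the other 3 that the gap, divided by the range of the group, passed Dixon's 95% critical value for 4 samples. There were 13 such cases in 138 groups, and chance gives about 1 in 20 groups. Control replicate 2 accounted for 9 of the 13.

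Of the 7 genes, Igf2bp1 was the one with such a library, at 45.4 CPM in control replicate 2, where the gap made up 0.883 of the control range. Fbxo33 (22.6 CPM) and Perm1 (4.13 CPM) stood apart in the same library, but both had been picked for their likeness to Igf2bp1. The let-7 host Mir99ahg (26.8 CPM), Trim71 (8.49 CPM), the germ cell genes Sycp3 (10.9 CPM) and Mael (8.81 CPM), the summed germ cell and pluripotency markers (44.0 CPM) and the summed renal stroma markers (1113 CPM) were also far above the other controls there. Nat8l, picked for its likeness to Igf2bp3, was at 3.55 CPM in control replicate 4. The summed adrenal markers stood apart at 147 CPM in control replicate 4 and at 2703 CPM in knockout replicate 1. Wdr82, the host of let-7g, was at 162 CPM in knockout replicate 2, above the other knockouts. Genes of a marker list were partly named for these values, so the count of cases is a description.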

How the results depend on the processing

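In 18 alternative fits, 103 of 103 values of the 6 tested members that the change could move kept their direction, and 0 members were called in 14 of the fits. The fits share most of their libraries, so their directions are not independent. Some values came close to no difference. The log2 fold change of Lin28b was 0.0025 without control replicate 3, and that of Igf2bp1 was 0.0128 without knockout replicate 1. A fit to the library tables is not counted, since their counts are identical, and the summed Hmga1 and Hmga1b counts bear on Hmga1 alone. There were 3 members called by limma-voom with sample weights, 3 with control replicate 2 and knockout replicate 3 both left out, and 0 to 2 when 1 library was left out. Genes called numbered 4506 with DESeq2, 8302 with limma-voom, 1215 with the adrenal covariate, 7903 with both libraries left out, and 153 (without knockout replicate 4) to 7084 (without control replicate 2) with 1 library left out, against 2751. The Kdm1a log2 fold change ranged from −0.29 to −0.24 with 1 library left out. That of Hmga1b ranged from −0.89 to 0.38, its sign turning without control replicate 1. Of 133 counts of calls in the pathway lists, 77 lay within 1.5 times the reported count. Cause was not tested for any of these shifts.

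With the replicate block, 1 member was called (Hmga1, log2 fold change −0.34, edgeR adjusted p 0.0418) and 3229 genes in all. Whether the numbers pair the samples is not known. Same-numbered libraries had correlations of −0.108, 0.329, 0.228 and −0.059 in their deviations from the group means. Not every library correlated best with its own number. With a seed of bases 2 to 7, Hmga2 held 7 matches, Igf2bp1 6, Lin28b 5 and Igf2bp2 2. Depth limits Lin28a, with 31 counts in all libraries, and Lin28b, with 17 to 40 counts per library.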

Other observations

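All tested genes with an annotated 3′ UTR were grouped by their number of matches to the let-7 seed, a grouping made after the values of the members were seen and given with no test. The 29 genes with 3 or more matches had a median log2 fold change of 0.16, and 2 of them (6.90%) were called by edgeR. Lin28b, Igf2bp1 and Hmga2 are among the 29. The called genes were Zfp512b, which was higher in the knockout (0.27, adjusted p 0.028), and D1Ertd622e, which was lower (−0.38, adjusted p 0.024). The median was −0.02 in 13643 genes with no match, of which 16.8% were called, 0.0022 in 1388 genes with 1 match (15.4%) and 0.04 in 167 genes with 2 (17.4%). The groups also differed in 3′ UTR length, with medians of 1043 bases for no match and 4466 bases for 3 or more, and the part of length was not tested.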
